A study of Mus musculus with 15 samples.

Results

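The genes described here are 9 members of the Sox family of transcription factors, Sox2, Sox4, Sox5, Sox6, Sox9, Sox11, Sox12, Sox13 and Sox21. They were chosen by name, with earlier results of these data known, from the 36528 genes listed by NCBI Gene identifier in each library. They were followed across 15 RNA libraries from tumour nests of mouse basal cell carcinoma, a skin cancer driven by Hedgehog signalling, cut from frozen skin by laser capture. The animals of every group carried K14Cre-ER, a tamoxifen-inducible recombinase driven by the keratin 14 promoter, with floxed alleles of Ptch1 (Ptch1fl/fl) and p53 (p53fl/fl) and with Lgr5GFP, the last of which 1 of the labels omits, so all nests share these alleles and there was no group without them. Of the libraries, 5 came from nests that remained after 28 days of vismodegib, which inhibits the Hedgehog transducer Smoothened. A further 5 came from nests of untreated control mice graded Ki67-positive and 5 from nests of untreated control mice graded Ki67-negative, Ki67 being an antigen of dividing cells. No source used here gives age, sex, tamoxifen dosing or the animal behind each library. Some nests may therefore share an animal, in which case the p-values over libraries are too small, and the p-values measure the spread between these libraries only. The comparisons ask how these genes differ between nests that remain under Hedgehog inhibition and untreated nests, and between untreated nests graded Ki67-negative and Ki67-positive.

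Sox proteins bind DNA through a shared HMG box and bend it, and they are sorted into groups by sequence. Sox2 and Sox21 are SoxB proteins, the former mainly an activator known from stem and progenitor cells, the latter mainly a repressor that is also expressed in the hair shaft. Sox4, Sox11 and Sox12 are SoxC proteins, activators of progenitor and migrating cells. Sox5, Sox6 and Sox13 are SoxD proteins, which have no activation domain of their own and act by dimerising and recruiting partners. Sox9 is a SoxE protein, an activator that keeps hair follicle stem cells and drives cartilage formation, and it is known from human and mouse basal cell carcinoma.

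Upstream sequences are shown for Sox21, the member with the largest rise, and for the SoxC trio, called lower against Ki67-positive nests. Sox13 and Sox5 fell further, but their windows overlap the annotated span of the gene itself and are not shown. Each is the 250 bases before the annotated start, from RefSeq on GRCm38.p6, on the minus strand and written 5′ to 3′ in the direction of the gene, and capitals mark the motif matches named after them.
Sox21: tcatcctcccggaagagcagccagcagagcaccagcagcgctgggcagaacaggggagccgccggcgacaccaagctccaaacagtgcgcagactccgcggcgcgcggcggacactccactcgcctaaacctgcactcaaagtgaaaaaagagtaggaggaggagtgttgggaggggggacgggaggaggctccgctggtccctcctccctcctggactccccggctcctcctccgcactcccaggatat
Sox4: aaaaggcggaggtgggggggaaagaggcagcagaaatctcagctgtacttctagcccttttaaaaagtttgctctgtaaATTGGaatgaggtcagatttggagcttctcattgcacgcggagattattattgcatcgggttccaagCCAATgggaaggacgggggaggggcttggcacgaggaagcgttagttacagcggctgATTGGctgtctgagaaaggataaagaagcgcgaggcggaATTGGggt
Sox11: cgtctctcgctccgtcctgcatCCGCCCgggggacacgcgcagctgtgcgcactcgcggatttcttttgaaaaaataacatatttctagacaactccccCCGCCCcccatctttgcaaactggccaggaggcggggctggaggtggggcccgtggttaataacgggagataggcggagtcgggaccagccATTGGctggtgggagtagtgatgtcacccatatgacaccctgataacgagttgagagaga
Sox12: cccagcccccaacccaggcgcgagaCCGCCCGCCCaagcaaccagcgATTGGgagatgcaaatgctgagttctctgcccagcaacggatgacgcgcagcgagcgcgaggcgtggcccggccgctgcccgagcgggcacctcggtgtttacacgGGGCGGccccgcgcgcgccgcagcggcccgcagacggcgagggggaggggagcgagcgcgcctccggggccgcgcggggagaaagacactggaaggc
These windows lie at chr14:118237031-118237280 for Sox21, chr13:28953700-28953949 for Sox4, chr12:27342719-27342968 for Sox11 and chr2:152398047-152398296 for Sox12, each directly upstream of the annotated gene. The Sox4 and Sox21 windows also lie within the spans of the long noncoding genes Gm46405 and Gm4675. All windows of the members were searched on both strands for a GLI site (GACCACCCA), SOX sites (ACAAAG or ACAATG) and a TCF/LEF site (ATCAAAG, which ends in the same letters as the former SOX site but does not contain it). The search also covered the GC box (GGGCGG), the box named for its letters CCAAT, and the promoter element TATAAA. In these 4 windows the capitals are CCAAT and GC boxes only. The Sox4 window holds 4 CCAAT boxes, the Sox11 window 1 CCAAT box and 2 GC boxes, and the Sox12 window 1 CCAAT box and 3 GC boxes, a pair of them overlapping. The Sox21 window holds none of the motifs. CCAAT occurs in 33.8% and GGGCGG in 32.7% of the 32851 promoter windows of this length, so both are common. The GLI letters occur in 0.225% of all windows and in 0 of the 13 windows listed for 8 of the members. Base composition varied among the members, with 65.2% GC and 17 CpG sites in the Sox21 window, 50.8% and 11 for Sox4, 58.0% and 17 for Sox11, and 74.4% and 35 for Sox12. The quartiles over all windows were 45.2%, 52.4% and 61.2% GC and 2, 6 and 16 CpG sites.

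Library totals ranged from 4887381 to 10328822 counts. The captured tissue expressed keratinocyte genes throughout. Levels are in CPM (counts of a gene scaled to library size, with TMM factors). Krt14, a basal keratinocyte keratin, was at 2272 to 3002 CPM in vismodegib, 694 to 1253 in Ki67-positive and 573 to 1046 in Ki67-negative nests. Of 6 keratinocyte markers, 3 rose and 1 fell in vismodegib against Ki67-positive nests, and 3 rose and 0 fell against Ki67-negative nests. Over all genes 26.0% and 31.9% were called in these comparisons, at an edgeR adjusted p under 0.05. Krt17 averaged 836 CPM in vismodegib, 1321 in Ki67-positive and 1137 in Ki67-negative nests. Mki67, the gene of the Ki67 antigen, was lower in Ki67-negative than in Ki67-positive nests (SE 0.2 around a log2 fold change of -1.10, quasi-likelihood adjusted p = 0.0291), with no overlap of the libraries; that call was lost in 6 of the 15 fits that left out a library (adjusted p up to 0.109). Mki67 was at 234 to 408 CPM in Ki67-negative, 587 to 1147 in Ki67-positive and 489 to 847 in vismodegib nests. Of 8 proliferation markers, 5 rose in vismodegib against Ki67-negative nests and 1 fell against Ki67-positive nests. The comparison with Ki67-negative nests thus also differs in proliferation genes. Markers of other cells differed between the groups. The summed level of 9 dendritic and Langerhans cell markers was 735 to 2400 CPM in vismodegib, 105 to 489 in Ki67-positive and 139 to 475 in Ki67-negative nests, and that of 7 pericyte markers was 109 to 154, 611 to 981 and 710 to 1008 CPM. All 9 dendritic and Langerhans markers rose against Ki67-positive nests, and 7 rose against Ki67-negative nests. Among them, Flt3 was at 2.21 to 3.93 CPM in vismodegib and at most at 1.21 CPM in Ki67-positive nests. It passed the filter on low counts through the vismodegib nests, so its part in the count against Ki67-positive nests supports nothing. Of the 7 pericyte markers, 6 fell in each vismodegib comparison, and the shares over all genes are those above. Named after their values were seen, Cspg4 averaged 66.7, 439 and 552 CPM in vismodegib, Ki67-positive and Ki67-negative nests, and Rgs5 7.6, 6.78 and 7.07. Fewer cells of a type and less RNA per cell cannot be told apart in such libraries. Which cells expressed these genes was not tested. Xist exceeded the Y-linked Ddx3y in 3 of the 5 vismodegib libraries and in 1 of 5 in each untreated group. The accession numbers of the Ki67-negative libraries form a later series, and a batch of their own, if there was one, cannot be told apart from the group.

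Sox9 was the most abundant Sox transcript in every group when levels were compared per length, by the deposited RPKM (reads scaled by gene length, library depth and a size factor). Its median was 28.2 RPKM in vismodegib nests (21.9 to 31.6), 56.5 in Ki67-positive nests (40.1 to 71.5) and 44.0 in Ki67-negative nests (37.2 to 54.3). In each group the lowest Sox9 library lay above the highest library of the next Sox gene. That next gene was Sox13 in the untreated nests, at a median of 27.7 RPKM in Ki67-positive and 24.7 in Ki67-negative nests, followed by Sox4 at 12.2 and 13.4 RPKM. The ranges of Sox13 and Sox4 overlapped in both untreated groups, so their order is not separated, but both stood above every other Sox gene there.

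The order of the other Sox genes was different in vismodegib nests. There Sox9 was followed by Sox7, which is not among the 9, at a median of 13.8 RPKM, and by Sox21 at 8.82 RPKM, whose ranges overlapped. Sox4 came next at 2.93 RPKM (2.32 to 5.66), below every Sox21 library. Sox13 stood at 1.26 RPKM (0.877 to 2.69), a range that overlapped those of Sox4 and of Sox12 at 0.916 RPKM (0.52 to 1.04). Sox6 at 0.426 RPKM, Sox5 at 0.104 RPKM and Sox11 at 0.0496 RPKM followed, with overlapping ranges. In Ki67-positive nests the lower members were Sox12 at 1.28, Sox5 at 0.772, Sox11 at 0.742, Sox21 at 0.391 and Sox6 at 0.278 RPKM, each overlapping its neighbour. In Ki67-negative nests Sox6 at 0.213 and Sox21 at 0.208 RPKM were the lowest of the members with counts in every library.

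The make-up of the family's transcripts therefore differed between treated and untreated nests while the share of Sox9 overlapped between them. Sox9 held a median of 45.3% of the RPKM summed over 20 Sox genes in vismodegib nests (39.9 to 53.3%), 54.8% in Ki67-positive nests (41.2 to 57.3%) and 49.3% in Ki67-negative nests (41.8 to 61.2%), and these ranges overlap. Sox13 held 2.35% (1.61 to 4.18%), 23.0% (15.2 to 28.4%) and 26.1% (16.1 to 28.0%) in the same order, and Sox21 15.3% (12.9 to 19.3%), 0.443% (0.0681 to 0.49%) and 0.248% (0.0169 to 0.369%). For both genes the vismodegib range lies apart from both untreated ranges, in opposite directions. The ratio of Sox21 to Sox13 per length was 3.13 to 11.9 in vismodegib nests, 0.00253 to 0.0321 in Ki67-positive nests and 0.000647 to 0.0185 in Ki67-negative nests. These shares are descriptions and were not tested.

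**Figure D1:**
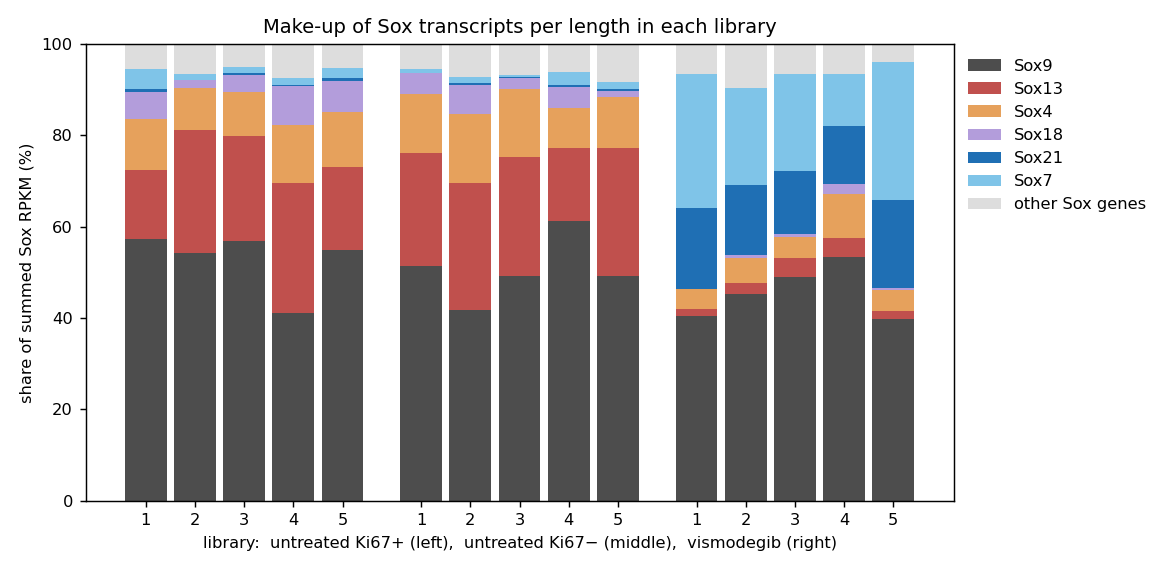
Share of the summed Sox RPKM (%, stacked to 100) held by 6 Sox genes and by all others, 1 bar per library, with Ki67-positive libraries at the left, Ki67-negative in the middle and vismodegib at the right. Sox9 takes 39.9 to 61.2% of every bar, Sox13 shrinks from 15.2% or more in untreated libraries to at most 4.18% under vismodegib, and Sox21 and Sox7 fill much of the vismodegib bars.

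Against untreated Ki67-positive nests, 8 of the 9 members passed the filter on low counts, and of these 1 rose (Sox21) and 6 fell (Sox4, Sox5, Sox9, Sox11, Sox12 and Sox13) in vismodegib nests, while Sox6 did not pass the test. Over all 17282 genes tested 26.0% were called, at an edgeR adjusted p under 0.05. At an unadjusted p under 0.05 the members numbered 7 of 8, beside 37.4% of all genes. The libraries of the groups did not overlap for 5 of the 8, Sox4, Sox5, Sox9, Sox13 and Sox21, against 20.3% of all genes. The median log2 fold change of the 8 was -1.33, and that of all genes was -0.02. Against Ki67-negative nests, 2 rose (Sox21 and Sox6) and 4 fell (Sox4, Sox5, Sox9 and Sox13), where 31.9% of all genes were called. At an unadjusted p under 0.05 there were 7 of 8, beside 42.5% of all genes. The same 5 genes had no overlap there, against 20.5% of all genes, and the medians were -1.10 for the 8 and -0.03 for all genes. Sox11 would not have passed the filter by the vismodegib libraries alone, and passed through the untreated nests, where it was higher. Its part in these counts and medians therefore supports nothing. Because the members were chosen with earlier results of these data known, the counts beside those of all genes are descriptions only. Both comparisons share the 5 vismodegib libraries, so their likeness is not independent support, and their values are set side by side below.

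**Figure D2:**
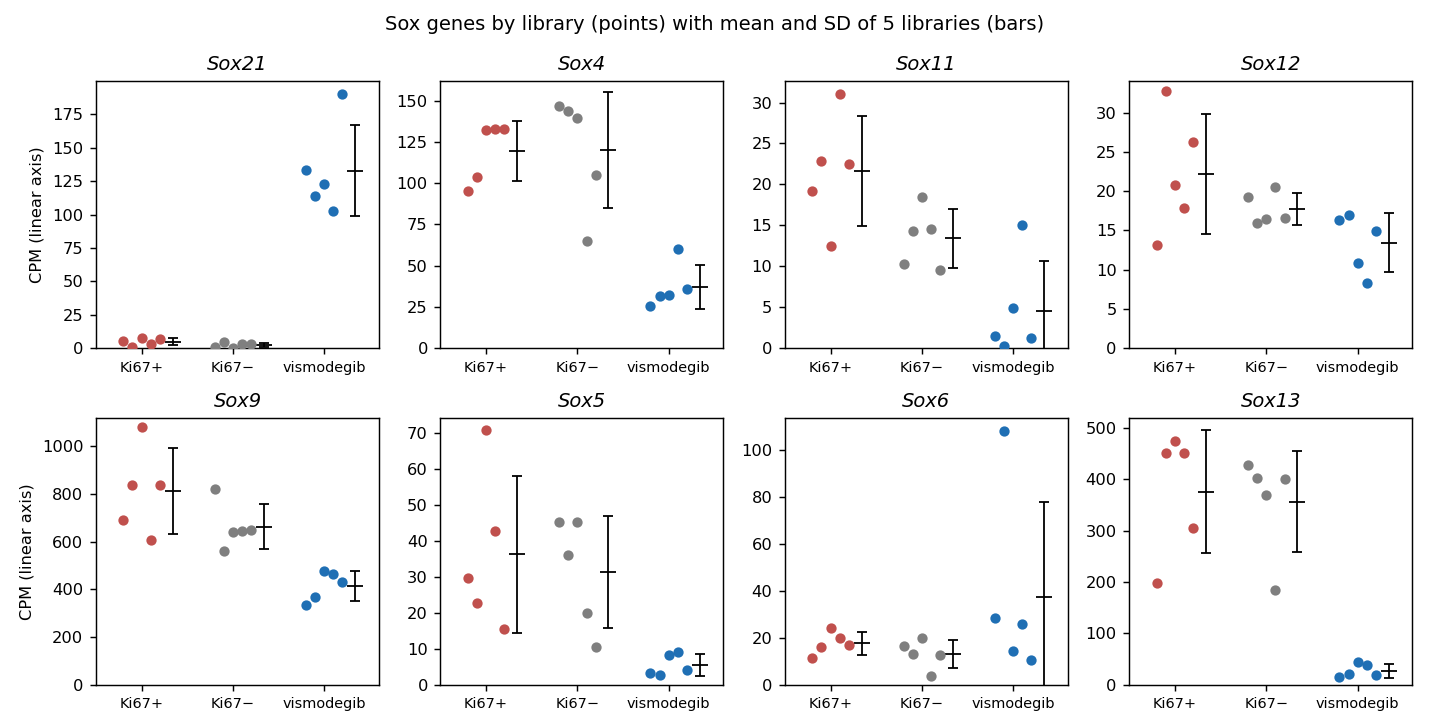
CPM (linear axes from 0, a scale for each gene) of 8 Sox genes in each library, points being libraries in order 1 to 5 and bars the mean and SD of 5 libraries, with lower bars running off the axis for Sox11 and Sox6 under vismodegib. The vismodegib points lie above all untreated points for Sox21 and below all of them for Sox4, Sox5, Sox9 and Sox13, and Sox6 has a single vismodegib library at 108 CPM.

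Among the SoxB genes, Sox21 rose. In vismodegib libraries 1 to 5 it reached 133, 114, 123, 103 and 190.4 CPM (mean 133 ± 34.1, SD, n = 5). In the Ki67-positive libraries it was at 5.37, 0.965, 7.72, 2.97 and 6.88 CPM (4.78 ± 2.79), and in the Ki67-negative libraries at 0.968, 4.53, 0.202, 2.87 and 2.99 CPM (2.31 ± 1.73). The lowest treated library stood far above the highest untreated one, and the untreated groups overlapped. Sox21 was 27.7-fold higher than in Ki67-positive nests (log2 fold change 4.79, SE 0.489, 95% interval 3.73 to 5.86, edgeR adjusted p = 3.77e-06) and 54.9-fold higher than in Ki67-negative nests (5.78, SE 0.525, 4.64 to 6.92, adjusted p = 1.06e-06). The call held when each library was left out in turn, with a range of 4.54 to 5.06 in log2 against Ki67-positive nests. The gene lies at chr14:118233233-118237030 on GRCm38.p6 and overlaps the noncoding gene Gm4675, and reads of the pair cannot be told apart because the use of strand is not given in the sources used here.

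Sox2, the other SoxB gene and a stem cell factor, was all but undetected. A single count was found over all 15 libraries, in vismodegib library 1, and the 10 untreated libraries held 0. A count of 0 allows a level of up to 0.0883 CPM, without TMM scaling, in the Ki67-positive and 0.0945 in the Ki67-negative libraries summed, counting error only, so a difference between groups was not detectable at this depth. Sox2 failed the filter and was not tested. Sox2ot, the noncoding gene whose span at chr3:34560381-34677993 holds Sox2, had 5 counts in all.

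Of the SoxC genes, Sox4 fell in both vismodegib comparisons, and Sox11 and Sox12 fell against Ki67-positive nests, with calls that depended on the libraries or settings used, and missed the threshold against Ki67-negative nests; whether the comparisons differ was not tested. Sox4, an activator of progenitor and migrating cells, was at 25.3, 31.8, 31.9, 60.2 and 36.1 CPM in vismodegib libraries 1 to 5 (mean 37.0 ± 13.5, SD, n = 5). It was at 95.4, 104, 132, 133 and 133 CPM in the Ki67-positive libraries (119 ± 18.4) and at 147, 144, 139.7, 64.9 and 105 CPM in the Ki67-negative libraries (120.1 ± 35.3). All treated libraries lay below all untreated ones, with vismodegib library 4 close to Ki67-negative library 4. Its level was 0.311 times that of Ki67-positive nests (log2 fold change -1.69, SE 0.239, 95% interval -2.21 to -1.17, edgeR adjusted p = 4.87e-05) and 0.309 times that of Ki67-negative nests (-1.69, SE 0.239, adjusted p = 4.01e-05). Sox4 is a gene of 4781 bases at chr13:28948919-28953699. It lies within the span of the noncoding gene Gm46405, and reads over shared sequence cannot be told apart without strand.

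Sox11, the second SoxC gene, was uneven under treatment. The vismodegib libraries held 1.54, 0.316, 4.85, 15 and 1.18 CPM (4.57 ± 6.05, SD, n = 5), the Ki67-positive libraries 19.2, 22.8, 12.5, 31.0 and 22.5 CPM (21.6 ± 6.69), and the Ki67-negative libraries 10.3, 14.3, 18.4, 14.5 and 9.57 CPM (13.4 ± 3.57). Vismodegib library 4 lay within both untreated ranges, and the other 4 lay below them. Sox11 fell against Ki67-positive nests (-2.21 on the log2 scale, SE 0.627, edgeR adjusted p = 0.0153) and missed the threshold against Ki67-negative nests (-1.52, SE 0.621, 95% interval -2.88 to -0.17, adjusted p = 0.0715). Without vismodegib library 4 the values were -3.37 and -2.69, and the latter passed (adjusted p = 0.000593). Sox11 passed against Ki67-negative nests also with DESeq2 (adjusted p = 0.028), limma voom (0.00738) and limma on the RPKM values (0.0114). Over the 10 libraries in which Xist did not exceed Ddx3y, it did not pass against Ki67-positive nests (-1.39, adjusted p = 0.207). That set leaves out 3 of the 5 vismodegib libraries, and fewer libraries and a dependence on Xist cannot be told apart there.

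Sox12, the third SoxC gene, differed least. It was at 16.3, 16.9, 10.9, 8.27 and 14.9 CPM under vismodegib (13.5 ± 3.74, SD, n = 5), at 13.2, 32.8, 20.8, 17.8 and 26.3 CPM in Ki67-positive nests (22.2 ± 7.6) and at 19.2, 15.9, 16.4, 20.5 and 16.6 CPM in Ki67-negative nests (17.7 ± 2.04). The groups overlapped in both comparisons. It fell against Ki67-positive nests by 0.72 on the log2 scale (SE 0.25, edgeR adjusted p = 0.0407) and did not pass against Ki67-negative nests (-0.40, 95% interval -0.94 to 0.15, adjusted p = 0.237). The call is near the threshold: it was lost without vismodegib library 3, 4 or 5 or Ki67-positive library 2, 3 or 5 (adjusted p up to 0.142), without a filter on low counts (0.0578), with limma on the RPKM values (0.0564), with only the groups compared in the fit (0.0582), and over the libraries in which Xist did not exceed Ddx3y (0.135).

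Within the SoxD group, Sox13 and Sox5 fell and Sox6 did not. Sox13, which in the untreated nests was second only to Sox9 by median level per length, was at 14.5, 20.7, 44.3, 39 and 18.9 CPM in vismodegib libraries 1 to 5 (27.5 ± 13.3, SD, n = 5). It was at 198, 451, 474, 452 and 305 CPM in Ki67-positive libraries (376 ± 120) and at 428, 403, 369, 184 and 400.3 CPM in Ki67-negative libraries (357 ± 99.2). The highest treated library was below the lowest untreated one, and the untreated groups overlapped. The level was 0.0735 times that of Ki67-positive nests (log2 fold change -3.77, SE 0.353, 95% interval -4.54 to -3, edgeR adjusted p = 1.51e-06) and 0.0774 times that of Ki67-negative nests (-3.69, SE 0.352, adjusted p = 1.57e-06). Of the members that fell, Sox13 had the largest fitted change in both comparisons. It spans chr1:133382300-133424459.

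Sox5, a SoxD gene of the cartilage and melanocyte lineages, was low but lower still under treatment. Vismodegib libraries held 3.24, 2.69, 8.21, 9.24 and 4.06 CPM (5.49 ± 3.02, SD, n = 5), Ki67-positive libraries 29.6, 22.8, 70.9, 42.7 and 15.4 CPM (36.3 ± 21.8), and Ki67-negative libraries 45.2, 36.0, 45.2, 19.9 and 10.6 CPM (31.4 ± 15.5). The treated libraries lay below all untreated ones, by a small margin against Ki67-negative library 5. The level was 0.153 times that of Ki67-positive nests (-2.71 on the log2 scale, SE 0.488, edgeR adjusted p = 0.000581) and 0.178 times that of Ki67-negative nests (-2.49, SE 0.486, adjusted p = 0.00103). Sox5 spans 953863 bases (chr6:143828425-144782287), and noncoding genes lie within that span. Of these, Sox5os4 held 0.4 ± 0.351 CPM in vismodegib, 6.58 ± 4.33 in Ki67-positive and 3.79 ± 1.75 in Ki67-negative nests (SD, n = 5), and reads over shared sequence cannot be told apart without strand. The summed level of 8 melanocyte markers was 129.6 to 462 CPM in vismodegib, 386 to 1661 in Ki67-positive and 226 to 1290 in Ki67-negative nests, and 6 of the 8 fell against Ki67-positive nests, where 26.0% of all genes were called. Against Ki67-negative nests 3 fell and 1 rose (Mitf, named after its values were seen, log2 fold change 0.63, adjusted p = 0.031), where 31.9% were called. Their part in the Sox5 difference was not tested.

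Sox6, the third SoxD gene and the partner of Sox5 in cartilage, depended on a single library. The vismodegib libraries were at 28.4, 108, 14.3, 25.8 and 10.6 CPM (37.3 ± 39.9, SD, n = 5), the Ki67-positive libraries at 11.2, 16.2, 24, 19.7 and 16.8 CPM (17.6 ± 4.7), and the Ki67-negative libraries at 16.3, 12.9, 19.8, 3.62 and 12.7 CPM (13.1 ± 6.02). Vismodegib libraries 1, 2 and 4 lay above all untreated ones and libraries 3 and 5 within their range. Sox6 did not pass against Ki67-positive nests (log2 fold change 1.08, 95% interval -0.11 to 2.26, edgeR adjusted p = 0.163) and passed narrowly against Ki67-negative nests (1.51, SE 0.554, adjusted p = 0.0479). Without vismodegib library 2 the values were 0.17 (adjusted p = 0.785) and 0.60 (0.248). The call against Ki67-negative nests was lost in 13 of the 15 fits that left out a library and under 7 of the 10 other settings.

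Sox9, the SoxE activator, fell by a smaller factor than most but without overlap. It was at 334, 368, 479, 465 and 430.5 CPM in vismodegib libraries 1 to 5 (415 ± 62.5, SD, n = 5), at 692, 839, 1082, 605 and 839 CPM in Ki67-positive libraries (811 ± 182) and at 819, 561, 641, 646 and 649.7 CPM in Ki67-negative libraries (663 ± 94.4). Every treated library lay below every untreated one. The level was 0.512 times that of Ki67-positive nests (log2 fold change -0.97, SE 0.155, 95% interval -1.3 to -0.63, edgeR adjusted p = 0.000153) and 0.626 times that of Ki67-negative nests (-0.67, SE 0.154, -1.01 to -0.34, adjusted p = 0.00283). Over the libraries in which Xist did not exceed Ddx3y, the latter was -0.57 and did not pass (adjusted p = 0.111). Sox9 lies at chr11:112782210-112787757.

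**Figure D3:**
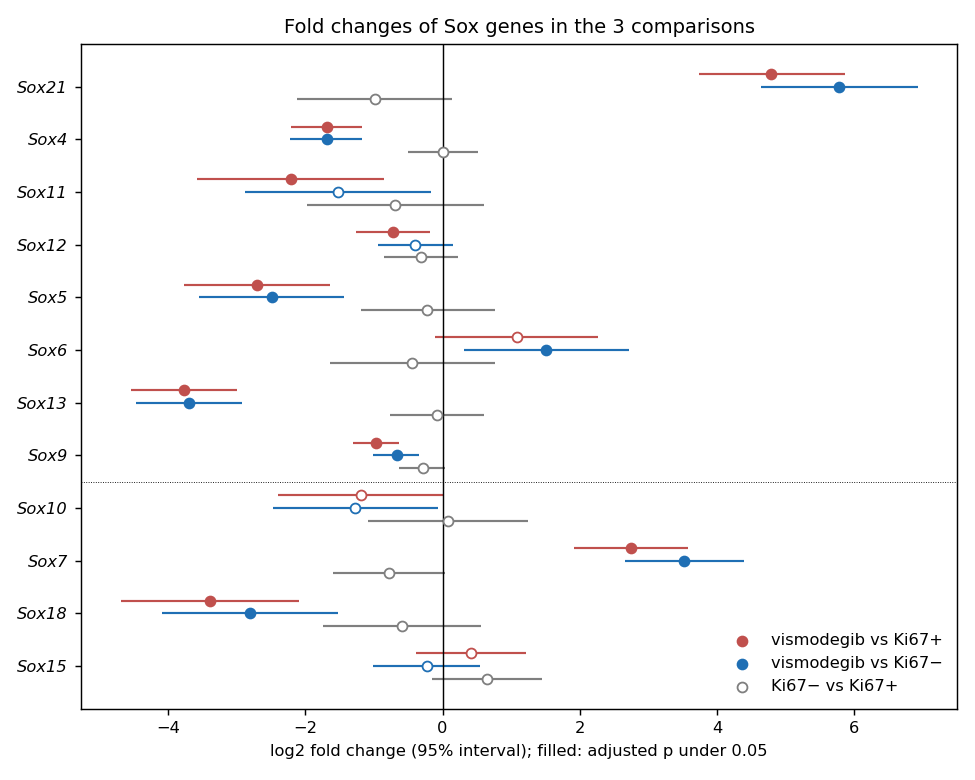
log2 fold changes (points) with 95% intervals (lines) of 12 Sox genes in the 3 comparisons, filled where the edgeR adjusted p is under 0.05 and the members above the dotted line. Sox21 lies at 4.79 and 5.78 in the vismodegib comparisons, Sox13 at -3.77 and -3.69, and every interval between the untreated groups reaches across 0.

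The vismodegib libraries were not alike among themselves. Library 4 had the highest level of Sox4 (60.2 CPM), Sox5 (9.24) and Sox11 (15) and the lowest of Sox21 (103) and Sox12 (8.27) in its group. The same library had the highest Hhip, a Hedgehog target that binds the ligand (29.7 CPM, the other 4 at 3.32 to 13.6), the highest summed level of 10 dermal papilla markers (503 CPM, the others at 121 to 299.6) and the lowest of the dendritic and Langerhans cell markers (735 CPM, the others at 1352 to 2400). Gli1, the Hedgehog effector and target, was at 89.6 CPM there and at 28.8, 126, 112 and 21.0 in libraries 1, 2, 3 and 5. The summed level of 9 Hedgehog targets was 1694 CPM in library 4 and was highest in library 2, at 1989.9 CPM. Neither Gli1 nor that sum set library 4 apart. This library was singled out after its values were seen, and the part of these markers in the Sox levels was not tested.

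Between the untreated groups, 0 of the 8 members tested were called, by edgeR or by any of the other settings, and 0 had an unadjusted p under 0.05. Over all genes 0.174% were called by edgeR and 6.68% had an unadjusted p under 0.05. The groups did not overlap for 0 of the 8, against 1.17% of all genes. Sox4, Sox13 and Sox5 had log2 fold changes near 0 in Ki67-negative against Ki67-positive nests, at 0.01 (95% interval -0.5 to 0.51), -0.08 (-0.76 to 0.61) and -0.22 (-1.19 to 0.76). Sox9 was at -0.29 (-0.63 to 0.04) and Sox12 at -0.32 (-0.86 to 0.22). The widest intervals were those of Sox11 (-0.69, -1.98 to 0.61), Sox6 (-0.44, -1.64 to 0.76) and Sox21 (-0.99, -2.12 to 0.14). The intervals allow differences of more than 2-fold for Sox21, Sox11, Sox6 and Sox5, so missing the threshold does not show that these genes were alike. Mki67 itself was called in this comparison.

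Of 11 other Sox genes in the files, 4 passed the filter, and in both vismodegib comparisons 1 of these rose (Sox7) and 1 fell (Sox18). Over all genes 26.0% were called against Ki67-positive and 31.9% against Ki67-negative nests, and 20.3% and 20.5% had no overlap. Both are SoxF genes, best known from blood and lymphatic endothelium. Sox7 was at 191, 136, 165, 77.8 and 256 CPM under vismodegib, at 42.2, 15.9, 17.7, 19.4 and 28.1 CPM in Ki67-positive nests and at 10.8, 13.6, 5.65, 24.8 and 16.5 CPM in Ki67-negative nests, with no overlap. It was 6.71-fold higher than in Ki67-positive nests (2.75 on the log2 scale, SE 0.38, edgeR adjusted p = 6.02e-05) and 11.5-fold higher than in Ki67-negative nests (3.52, SE 0.395, adjusted p = 7e-06). Sox18 was at 0.462, 2.37, 2.67, 7.41 and 1.44 CPM under vismodegib, at 28.6, 9.33, 27.6, 48.2 and 40.5 CPM in Ki67-positive nests and at 29.2, 33.9, 12.5, 19.6 and 7.18 CPM in Ki67-negative nests, where 1 library on either side overlapped. It fell by 3.39 (SE 0.597, adjusted p = 0.000492) and by 2.81 (SE 0.589, adjusted p = 0.00185) on the log2 scale. Sox18 would not have passed the filter by the vismodegib libraries alone, and passed through the untreated nests, where it was higher. Its part in the counts therefore supports nothing.

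Sox7 and Sox18 thus moved in opposite directions in the same libraries. The summed level of 8 endothelial markers was 21.9 to 51.2 CPM in vismodegib, 14.4 to 63.9 in Ki67-positive and 13.2 to 85.9 in Ki67-negative nests. These ranges overlap, and 0 of the 6 endothelial markers tested were called by edgeR in any comparison or had an unadjusted p under 0.05. Of all genes, 26.0% were called against Ki67-positive nests, 31.9% against Ki67-negative nests and 0.174% between the untreated groups. Those with an unadjusted p under 0.05 were 37.4%, 42.5% and 6.68%. Sox10, the SoxE gene of melanocytes and Schwann cells, did not pass (log2 fold change -1.19, adjusted p = 0.122, and -1.27, adjusted p = 0.0879, which passed with DESeq2 at 0.0437 and without Ki67-negative library 4 at 0.027), and neither did Sox15, a SoxG gene of keratinocytes (0.42, 0.436, and -0.23, 0.657). The remaining 7, Sry, Sox1, Sox3, Sox8, Sox14, Sox17 and Sox30, were too low to be tested.

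**Figure D4:**
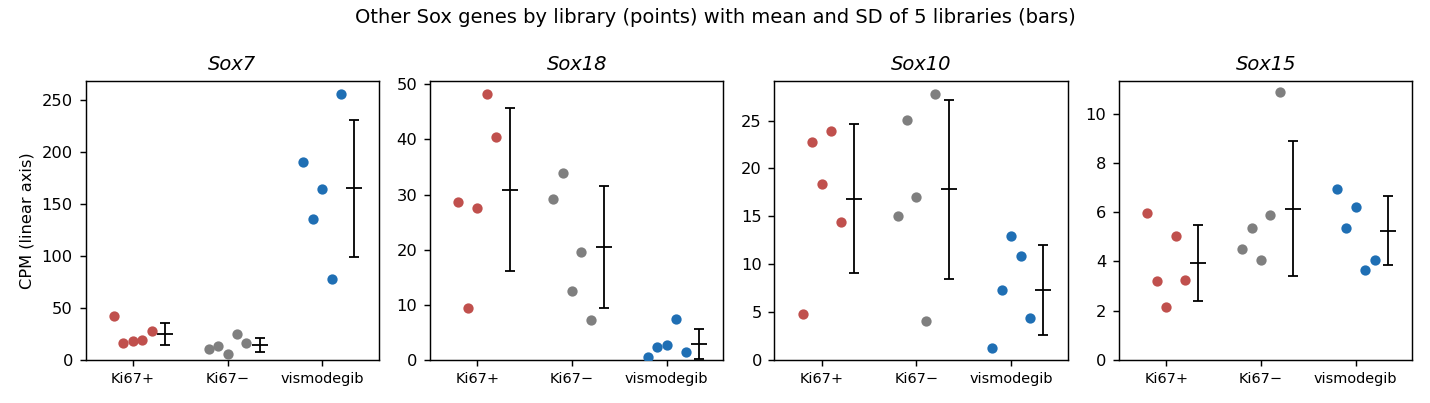
CPM (linear axes from 0, a scale for each gene) of Sox7, Sox18, Sox10 and Sox15 in each library (points) with the mean and SD of 5 libraries (bars). Sox7 lies at 77.8 to 256 CPM under vismodegib and at most at 42.2 CPM in untreated nests, while Sox18 lies at 0.462 to 7.41 CPM against 7.18 to 48.2.

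Some genes that Sox9 and the SoxD proteins are known to activate in cartilage fell after vismodegib. Of 12 listed, 6 were too low to be tested. The others were measurable mainly through the untreated nests, where they are higher, so for most of them only a fall could be called and their number supports nothing. Col2a1, the main collagen of cartilage, was at 0.657 ± 0.523 CPM in vismodegib, 34 ± 21.9 in Ki67-positive and 28.8 ± 19.1 in Ki67-negative nests (SD, n = 5; log2 fold change -5.64, SE 0.636, edgeR adjusted p = 8.66e-06 against Ki67-positive nests). Acan, the cartilage proteoglycan aggrecan, was at 0.244 ± 0.331, 8.54 ± 6.08 and 5.05 ± 1.91 CPM (-5.18, SE 0.755, adjusted p = 6.39e-05), and the collagen genes Col11a1 and Col9a3 changed by -3.45 and -1.76. The summed level of the 12 genes was 7.91 to 22.7 CPM in vismodegib, 82.6 to 159 in Ki67-positive and 65.8 to 131 in Ki67-negative nests, with the highest treated value again in library 4. The summed level of dermal papilla markers stood at 121 to 503, 856 to 1137 and 963 to 1254 CPM in the same groups. Much of it was Prdm1, at 126, 523 and 586 CPM on average. Of 9 dermal papilla markers tested, 4 fell against Ki67-positive nests, where 26.0% of all genes were called. Against Ki67-negative nests 5 fell, where 31.9% were called. The summed pericyte markers were also lower in vismodegib nests, and the part of both lists was not tested.

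Of 4 genes known to act downstream of SoxC proteins, 3 were tested and 1 fell, where 26.0% of all genes were called: Fscn1, which bundles actin in migrating cells (log2 fold change -2.26, SE 0.301, edgeR adjusted p = 2.63e-05, against Ki67-positive nests). Tead2, a transcription factor of the Hippo pathway, was at -1.09 (adjusted p = 0.0904; it passed without vismodegib library 4, at 0.0431, or Ki67-positive library 1, at 0.0432), and Ezh2, the histone methyltransferase of the Polycomb complex, at -0.29 (0.207). The same gene alone was called against Ki67-negative nests, where 31.9% of all genes were. Of 12 listed partners of Sox2 and neural genes, 8 were tested, of which 2 rose and 2 fell against Ki67-positive nests, beside 12.6% of all genes higher and 13.4% lower. The chromatin remodeller Chd7 rose (1.56, adjusted p = 0.00168), as did the POU factor Pou3f1 (2.32, 0.00474), and the receptor Nrp1 (-1.34, 0.000576) and the surface protein Prom1 (-2.76, 0.00274) fell. Against Ki67-negative nests 3 rose and 2 fell, beside 15.4% and 16.5% of all genes.

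Lists of Hedgehog, follicle and epidermal genes held changes in both directions, in a comparison in which 12.6% of all genes were called higher and 13.4% lower. Of 9 Hedgehog targets 8 were tested, and 6 fell and 1 rose against Ki67-positive nests. Hhip (log2 fold change -5.54, edgeR adjusted p = 1.09e-06) and the forkhead factor Foxl1 (-5.15, 0.000348) fell, and the cell cycle gene Ccnd2 rose (1.73, 0.000121). Of 16 hair follicle and bulge regulators, all tested, 6 fell and 3 rose, with the Wnt pathway factors Tcf7l1 (-2.74, 4.01e-07) and Tcf7l2 (-1.66, 1.72e-06), the follicle stem cell factor Lhx2 (-3.12, 1.39e-06) and the T-box factor Tbx1 (-5.21, 1.76e-06) leading by adjusted p. Of 13 epidermal differentiation factors 12 were tested, and 6 rose, among them Klf4 (1.59, 0.000255), Cebpa (1.46, 0.000269) and Grhl1 (0.92, 0.00183), while Prdm1, which the dermal papilla list also holds, fell (-2.05, 2.27e-06). The medians over the tested genes were -2.30 for the Hedgehog targets, -0.23 for the follicle regulators and 0.62 for the differentiation factors. Foxl1 (at most 0.308 CPM under vismodegib) and Tbx1 (at most 0.891 CPM) passed the filter through the untreated nests, where they were higher. For these genes only a fall could be called, so their part in the counts and medians supports nothing. Between the untreated groups 0 genes of these lists were called by edgeR, beside 0.174% of all genes. There 1 follicle regulator had an unadjusted p under 0.05, beside 6.68% of all genes.

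The members that varied most across the 15 libraries were Sox21, Sox13 and Sox11, with standard deviations of log2 CPM of 2.88, 1.93 and 1.67. Genes whose pattern lay closest to each were found by the root mean square difference of mean-centred log2 CPM over the 15 libraries among 10393 genes, as a description. Closest to Sox21 were Pcdh19, a protocadherin (difference 0.771, at 118, 6.52 and 2.9 CPM on average in vismodegib, Ki67-positive and Ki67-negative nests), Slc16a14 (0.843) and Tmprss4 (0.952). Closest to Sox13 were Lhx2 (0.32), Chrna4 (0.377) and Fras1 (0.436). Lhx2 averaged 70.3, 613 and 663 CPM in the same groups, and like Sox13 it was lowest among the Ki67-negative libraries in library 4, at 337 CPM. Closest to Sox11 were Pla2g7 (0.621), Itga8 (0.656) and Ptprd (0.678). The smallest of these differences was that between Sox13 and Lhx2.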

How the data were processed

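The deposited tables, 1 per library, give for each NCBI Gene identifier the number of reads aligned uniquely to the gene model, per the file headers, and these counts were used as deposited. They also give RPKM values that the authors adjusted by a size factor, per the file headers, which were used only for levels between genes and for 1 alternative test. Reads were aligned with GSNAP to GRCm38, per the submitters' processing notes; no source used here gives the version, annotation or use of strand. Of the 36528 identifiers, 31049 (85.0%) matched a symbol in the RefSeq annotation of GRCm38.p6, and the others stayed in the fit. No library duplicated another of its group: between libraries of a group, chi-square over its degrees of freedom was 13.24 to 43.32. Libraries of different groups were not compared in this way.

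The 15 libraries (5 per group, numbered in accession order) entered 1 fit with edgeR 4.0.16 in R 4.3.3: TMM scaling, genes kept by filterByExpr (minimum count 10, minimum total count 15), robust quasi-likelihood F test with 12 residual degrees of freedom, two-sided, Benjamini-Hochberg adjustment over the 17282 genes tested, called at an adjusted p under 0.05. The common biological coefficient of variation was 0.348. SE is the log2 fold change divided by the square root of F. Alternatives were median-of-ratios and upper-quartile scaling, no filter, CPM of at least 1 in at least 5 libraries, DESeq2 1.42.0, limma 3.58.1 (voom, and log2(RPKM + 0.1)), only the groups compared, a covariate for Xist above Ddx3y, and each library left out. A fit over the 10 libraries with Xist not above Ddx3y was added after seeing the data. It leaves out 3 of the 5 vismodegib libraries and 1 of 5 in each untreated group. The code was tested on simulated data.

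The members and gene lists were chosen with earlier results of these data known. Named are all members, the other Sox genes, up to 4 genes per list with the smallest adjusted p against Ki67-positive nests (not all printed), and the 3 genes most like each of the 3 most variable members with a mean log2 CPM of at least 3.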

Additional observations from a re-analysis of the deposited data

Results flagged for a closer look

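In 24 groups of 5 values (8 members in 3 groups), 2 held a library set apart from the other 4 by more than 0.71 of the group's range, where chance gives about 1 in 20 groups. Sox6 reached 108 CPM in vismodegib library 2, and the other vismodegib libraries lay between 10.6 and 28.4 CPM. Sox13 was at 184 CPM in Ki67-negative library 4, and the other Ki67-negative libraries lay between 369 and 428 CPM.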

How the results depend on the processing

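Calls of Sox4, Sox5, Sox13 and Sox21 in both vismodegib comparisons, and of Sox9 against Ki67-positive nests, held in all 15 fits without a library and all 10 other settings. Over those settings the log2 fold change against Ki67-positive nests was 4.55 to 5.09 for Sox21, -3.82 to -3.72 for Sox13, -2.76 to -2.01 for Sox5, -1.74 to -1.26 for Sox4 and -1.02 to -0.84 for Sox9. The calls of Sox6, Sox11, Sox12 and, against Ki67-negative nests, Sox9 changed with settings given beside them, and the cause was not tested. Against Ki67-negative nests 1 member rose with upper-quartile scaling, no filter, voom, limma on RPKM, only the groups compared, the Xist covariate, and the libraries with Xist not above Ddx3y. Over the last set, which has fewer libraries, 1380 genes rose and 1435 fell against Ki67-positive nests (2186 and 2311 in the main analysis), and 1531 and 1493 against Ki67-negative nests (2658 and 2855). Sox18 then missed the threshold against Ki67-negative nests (-2.41, adjusted p = 0.0508), and against Ki67-positive nests Sox15 turned to -0.08 and Col9a3 (adjusted p = 0.132), Prom1 (0.113) Krt5 (0.121), Hapln1 (0.0869) and Col11a2 (0.08) missed it. Of the cartilage genes, Col11a2 also lost its call in 5 of 15 fits without a library, with voom (0.0578) and with limma on RPKM (0.0892), and Hapln1 with the last (0.0849). Between the untreated groups (0 higher, 30 lower), DESeq2 called 5 higher and 81 lower, voom 15 lower, limma on RPKM 1 higher, and the fits with only the groups compared and with Xist not above Ddx3y 0 lower. Sox4, at 0.01 there, was -0.05 with voom and -0.03 with limma on RPKM.

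Leaving out 1 library gave 1831 to 2624 genes higher and 1935 to 2595 lower against Ki67-positive nests, with 1 member higher and 5 to 6 lower. Against Ki67-negative nests it gave 2193 to 2826 and 2373 to 2945, with 1 to 2 members higher and 4 to 5 lower, and between the untreated groups 0 to 1 and 0 to 43. Signs turned for values near 0: Sox4 (-0.07 to 0.17), Sox13 (-0.24 to 0.09) and Sox5 (-0.41 to 0.17) between the untreated groups, and Sox15 against Ki67-negative nests (-0.35 to 0.08). Of 32 other genes named, 22 kept every call. Mki67 lost its call between the untreated groups with only the groups compared (adjusted p = 0.0736) and without some libraries. All 24 levels per length moved by less than 1 SD with TMM-scaled CPM per length. No paired analysis was possible because the labels give no replicate numbers or animals.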
